A study of Mus musculus with 24 samples.

Results

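The levels of 8 homeobox genes, of 36528 gene rows measured, were followed through mouse intestinal tumours after diphtheria toxin (DT) or saline. They were Cdx1 and Cdx2, the caudal-type factors of intestinal identity, Prox1, Lhx6, Msx1, Msx2 and Msx3, called tumour-expressed in the choice of genes, and Evx1. The genes were chosen on the count of each library with the DT against saline contrast known, so their DT values are given as a description, with no test. The tumours came from small intestine and had a genotype recorded as AKVPL, shared by all groups, whose letters the labels do not spell out. The 6 groups, of 4 libraries each, were DT at 24 h, DT at 48 h, DT at 96 h, saline at 24 h, saline at 48 h and saline at 96 h. DT was given to deplete cells that express Lgr5, the R-spondin receptor of intestinal stem cells. Cells were recovered by flow sorting with the sort recorded as bulk and EpCAM in the sample names, and polyA RNA was sequenced. The labels do not say whether the libraries came from separate animals, and a p-value then measures only how far these samples spread, which can be technical.

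Homeobox proteins bind DNA through a homeodomain, and each is used in many tissues. In the intestine, CDX2 and CDX1 switch on genes of absorptive and secretory epithelium, and mouse intestine that loses Cdx2 takes on foregut and gastric features. PROX1 directs lymphatic endothelial fate in the mouse and is a known target of beta-catenin with TCF in human colorectal tumours. MSX proteins are repressors that act downstream of BMP signals in mouse embryos, and EVX1 and LHX6 are known from mouse neurons, EVX1 also from the primitive streak.

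The 250 bases before the annotated start of Evx1, Msx3, Prox1 and Cdx2 are shown because these genes span the range of behaviour after DT, with Cdx2 the only measured one of the 4 not lower. They are RefSeq sequence of GRCm38.p6, read 5′ to 3′ on the strand of the gene, and windows were found for 7 of the 8 genes. The windows are Evx1 at chr6:52313248-52313497 (plus strand), Msx3 at chr7:140049089-140049338 (minus strand), Prox1 at chr1:190170828-190171077 (minus strand) and Cdx2 at chr5:147307250-147307499 (minus strand). Capitals mark a CDX core (TTTATNG) or an MSX core (TAATTG) on either strand.
Evx1: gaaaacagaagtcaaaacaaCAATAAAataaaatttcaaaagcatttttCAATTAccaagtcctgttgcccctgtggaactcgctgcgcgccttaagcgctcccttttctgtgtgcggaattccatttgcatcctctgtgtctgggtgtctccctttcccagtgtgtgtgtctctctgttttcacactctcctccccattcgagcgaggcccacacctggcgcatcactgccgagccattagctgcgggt
Msx3: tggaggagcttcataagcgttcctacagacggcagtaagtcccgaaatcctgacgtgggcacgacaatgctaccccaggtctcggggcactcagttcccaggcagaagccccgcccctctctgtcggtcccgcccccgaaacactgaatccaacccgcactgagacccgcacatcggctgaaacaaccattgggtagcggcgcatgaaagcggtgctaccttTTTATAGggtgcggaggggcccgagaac
Prox1: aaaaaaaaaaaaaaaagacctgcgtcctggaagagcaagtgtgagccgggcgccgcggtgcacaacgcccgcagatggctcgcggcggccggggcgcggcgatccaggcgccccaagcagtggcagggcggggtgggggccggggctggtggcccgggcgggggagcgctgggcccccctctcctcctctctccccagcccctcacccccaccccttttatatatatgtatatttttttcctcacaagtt
Cdx2: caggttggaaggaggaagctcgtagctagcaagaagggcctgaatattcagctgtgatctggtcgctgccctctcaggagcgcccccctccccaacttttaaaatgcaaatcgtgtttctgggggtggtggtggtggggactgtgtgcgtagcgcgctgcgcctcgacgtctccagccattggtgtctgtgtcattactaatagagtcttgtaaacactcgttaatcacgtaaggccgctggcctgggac
The TTTATNG core occurred in 9.81% of the 32851 promoter windows of the genome. Among the members with a window it matched in 1 window of Msx3 and 1 of Evx1. The TAATTG core occurred in 7.17% of windows and matched in 1 window of Lhx6 and 1 of Evx1. The TCF and LEF core CTTTGAT occurred in 3.21% of windows and CTTTGAA in 4.46%, and neither matched a window of a member. A match of these letters is a description, not a binding site, and none of the cores overlapped another in the windows shown.

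Library totals ran between 10888654 and 27707554 counts, and 17468 genes passed a filter on low counts, 7 of the 8 members among them. DT replicate 3 at 48 h stood apart from its group on the first principal component of expression, which held 28.4% of variance. It scored -2.97, against 18.4 to 30.9 in the other DT libraries of 48 h, while saline libraries of all times scored -26.7 to -17.2. The 48 h fold changes of the members, and of some other genes, are therefore also given without it. Other 48 h values include this library unless stated. Levels are given as CPM, counts per 1000000 counts of the scaled library. Epcam ran between 1240 and 1650 CPM and Vil1, an epithelial cytoskeletal gene, between 254 and 320 CPM. Fibroblast collagen Col1a1 was also present, between 967 and 4180 CPM. Lgr5, the targeted gene, averaged 81.4 CPM at 24 h, 121 at 48 h and 127 at 96 h with DT, against 200, 182 and 171 CPM with saline. It fell by 1.30 ± 0.12 on the log2 scale (SE) at 24 h (edgeR, adjusted p = 4.44e-08). At 48 h it fell by 0.60 ± 0.12 (edgeR, adjusted p = 0.00272), and at 96 h it fell by 0.43 ± 0.12 (edgeR, adjusted p = 0.0447). Without DT replicate 3 at 48 h, it fell by 0.80 (adjusted p = 2.1e-06). The 96 h call was lost under each library left out. In edgeR it was also lost with median-of-ratios scaling (adjusted p = 0.057) and the authors' size factors (adjusted p = 0.0545). The same held with no low-count filter (adjusted p = 0.0655) and with a replicate block (adjusted p = 0.152). The 48 h call was lost with a fit of the 8 libraries compared (adjusted p = 0.0663). In bulk RNA, fewer cells of a type and less RNA per cell cannot be told apart.

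**Figure D1:**
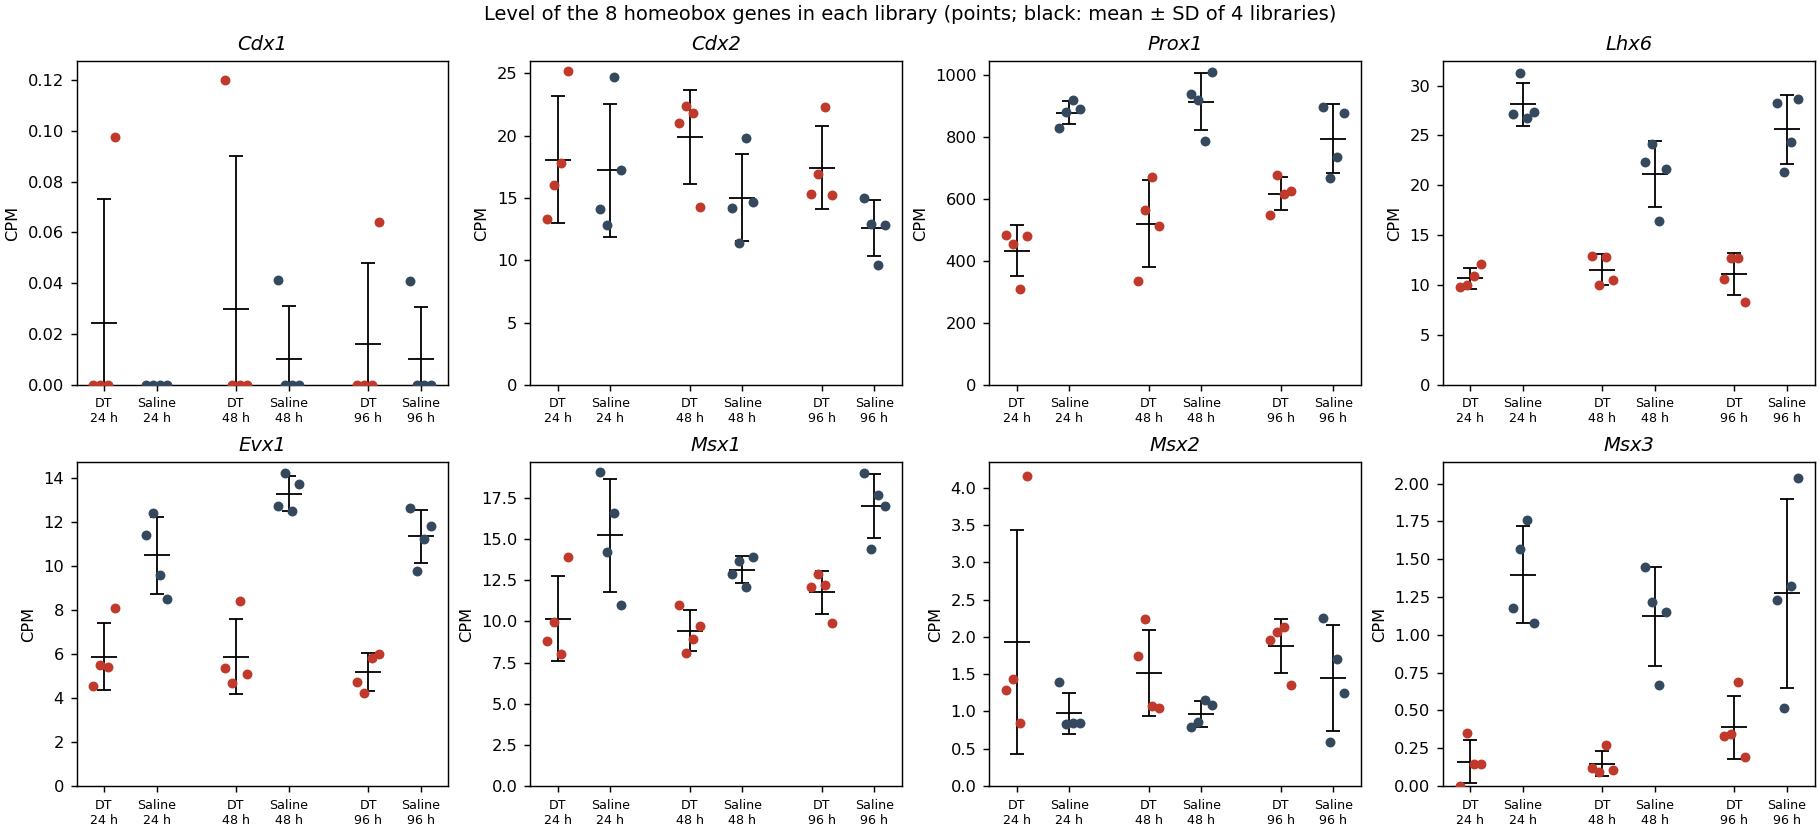
Level in CPM of the 8 homeobox genes in each of 24 libraries, DT left of saline at 24, 48 and 96 h. Points are libraries, and black bars give the mean and SD of 4. Lhx6 and Evx1 separate DT from saline at each time, while Cdx2 overlaps except at 96 h and Cdx1 is near 0.

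Of the CDX genes, Cdx1 was near 0 and Cdx2 did not separate DT from saline before 96 h. Cdx1 (chromosome 18), a caudal-type gene of crypt and differentiated epithelium, was all but absent, with 7 counts in all over 24 libraries. They lay in 5 libraries, with at most 2 in any, and 19 libraries had none. Both groups lay under a floor of 3 counts a library, so no fold is given and a change was not detectable at this depth. Cdx2 (chromosome 5) was expressed in every library. At 24 h it had 13.3, 16, 17.8 and 25.2 CPM in DT libraries, against 14.1, 12.8, 24.7 and 17.2 CPM in saline libraries. These groups overlapped widely, and the log2 fold change was 0.08 ± 0.22 (SE).

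At 48 h Cdx2 had 21.0, 22.4, 21.8 and 14.3 CPM with DT, against 14.2, 11.4, 19.8 and 14.7 CPM with saline. Replicate 4 was the low DT library and replicate 3 the high saline one, so the groups overlapped, with a log2 fold change of 0.40 ± 0.22 (0.36 without DT replicate 3). The 96 h levels were 15.3, 16.9, 22.3 and 15.2 CPM with DT, against 15, 12.9, 9.63 and 12.8 CPM with saline. Here every DT library lay above every saline library, by a narrow margin, with a log2 fold change of 0.45 ± 0.22. Over the libraries left out the 24 h value ran between -0.12 and 0.28 and so changed sign.

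Prox1 (chromosome 1), a homeobox factor of lymphatic and enteroendocrine cells that human colorectal tumours also express, was lower with DT. At 24 h it had 484, 456, 310 and 482 CPM in DT libraries, against 828, 880, 918 and 889 CPM in saline libraries. The groups were far apart and replicate 3 was the lowest DT library, with a log2 fold change of -1.02 ± 0.16. Levels at 48 h were 335, 563, 672 and 512 CPM with DT, against 940, 919, 788 and 1010 CPM with saline. No libraries overlapped, with a log2 fold change of -0.81 ± 0.16 (-0.94 without DT replicate 3, the highest DT library). Levels at 96 h were 549, 678, 615 and 627 CPM with DT, against 898, 668, 735 and 879 CPM with saline. DT replicate 2 now lay just above saline replicate 2, and the log2 fold change was -0.37 ± 0.16. As a description, the DT effect on Prox1 at 96 h minus that at 24 h was 0.66 ± 0.22 on the log2 scale, against 0.21 ± 0.22 for 48 h minus 24 h.

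Lhx6 (chromosome 2), a LIM homeobox gene known from mouse interneurons and branchial arch, was lower at each time. At 24 h it had 9.77, 9.98, 10.9 and 12.1 CPM with DT, against 27.1, 31.3, 26.7 and 27.3 CPM with saline, a log2 fold change of -1.39 ± 0.13. Every DT library lay beneath every saline library. The 48 h levels were 12.9, 10, 12.8 and 10.5 CPM with DT, against 22.3, 24.1, 16.4 and 21.6 CPM with saline, a log2 fold change of -0.87 ± 0.13 (-0.91 without DT replicate 3). The 96 h levels were 10.6, 12.7, 12.7 and 8.34 CPM with DT, against 28.2, 21.3, 24.3 and 28.6 CPM with saline, a log2 fold change of -1.21 ± 0.13. DT libraries stayed between 8.34 and 12.9 CPM over all times, while the saline libraries were lowest at 48 h. The DT effect at 48 h minus that at 24 h was 0.52 ± 0.19, and at 96 h minus 24 h it was 0.18 ± 0.19.

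Evx1 (chromosome 6), an even-skipped type gene of spinal interneurons and the mouse primitive streak, was also lower at each time. Evx1 levels at 24 h were 4.54, 5.48, 5.40 and 8.07 CPM with DT, against 11.4, 12.4, 9.59 and 8.48 CPM with saline, a log2 fold change of -0.83 ± 0.18. DT replicate 4 came closest to the lowest saline library. Evx1 levels at 48 h were 5.35, 4.66, 8.38 and 5.10 CPM with DT, against 12.7, 14.2, 12.5 and 13.7 CPM with saline, a log2 fold change of -1.18 ± 0.17 (-1.38 without DT replicate 3, the highest). At 96 h it had 4.70, 4.22, 5.82 and 5.97 CPM with DT, against 12.6, 9.74, 11.2 and 11.8 CPM with saline, a log2 fold change of -1.15 ± 0.18. The groups did not overlap at any time.

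The 3 Msx genes did not move together. Msx1 (chromosome 5), a BMP-responsive repressor, had 8.83, 9.94, 8.02 and 13.9 CPM with DT at 24 h, against 19.1, 14.2, 16.6 and 11.0 CPM with saline. DT replicate 4 lay above saline replicate 4, and the log2 fold change was -0.58 ± 0.16. At 48 h it had 11.0, 8.06, 8.92 and 9.74 CPM with DT, against 12.9, 13.7, 12.1 and 13.9 CPM with saline, without overlap, a log2 fold change of -0.47 ± 0.16 (-0.43 without DT replicate 3). At 96 h it had 12.1, 12.9, 12.2 and 9.88 CPM with DT, against 19.0, 14.4, 17.7 and 17 CPM with saline, again without overlap, a log2 fold change of -0.54 ± 0.16.

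Msx2 (chromosome 13), its close relative, was low and higher with DT on average. At 24 h it had 1.29, 1.44, 0.85 and 4.16 CPM with DT, against 1.39, 0.825, 0.846 and 0.848 CPM with saline, a log2 fold change of 0.97 ± 0.43. The value rested on DT replicate 4, and without it was 0.26. At 48 h it had 1.74, 2.24, 1.07 and 1.04 CPM with DT, against 0.787, 0.853, 1.15 and 1.09 CPM with saline, a log2 fold change of 0.62 ± 0.43 (0.76 without DT replicate 3). At 96 h it had 1.96, 2.06, 2.14 and 1.35 CPM with DT, against 2.25, 0.586, 1.71 and 1.25 CPM with saline, a log2 fold change of 0.33 ± 0.40. The groups overlapped at each time.

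Msx3 (chromosome 7), known from the mouse dorsal neural tube, had the greatest fold difference of the 7 genes and also few counts, 53 over 12 DT libraries against 270 over 12 saline libraries. It passed the count filter through its saline libraries alone. Msx3 levels at 24 h were 0, 0.351, 0.148 and 0.147 CPM with DT, against 1.18, 1.57, 1.76 and 1.08 CPM with saline, a log2 fold change of -2.85 ± 0.46. Without DT replicate 2 the value was -3.51. Msx3 levels at 48 h were 0.12, 0.0895, 0.268 and 0.107 CPM with DT, against 1.45, 1.22, 0.666 and 1.15 CPM with saline, a log2 fold change of -2.94 ± 0.51 (-3.31 without DT replicate 3). These DT levels rest on 2, 1, 4 and 3 counts, at or near the floor of 3 counts a library, so the size of this fold is poorly fixed. Msx3 levels at 96 h were 0.333, 0.344, 0.685 and 0.193 CPM with DT, against 1.23, 0.513, 1.32 and 2.04 CPM with saline, a log2 fold change of -1.80 ± 0.43. DT replicate 3 then lay above saline replicate 2, and the groups did not overlap at the earlier times.

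Counted over the members, DT lay beneath saline in every library for 4 of 8 at 24 h, 5 of 8 at 48 h and 3 of 8 at 96 h. Over all genes tested the share was 16.2%, 8.65% and 6.7% at these times. DT lay above saline in every library for 1 of 8 at 96 h, Cdx2, against 4.91% of all genes. Since the members were chosen by this contrast, nothing is read from these counts. The comparisons at the 3 times do not share libraries.

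**Figure D2:**
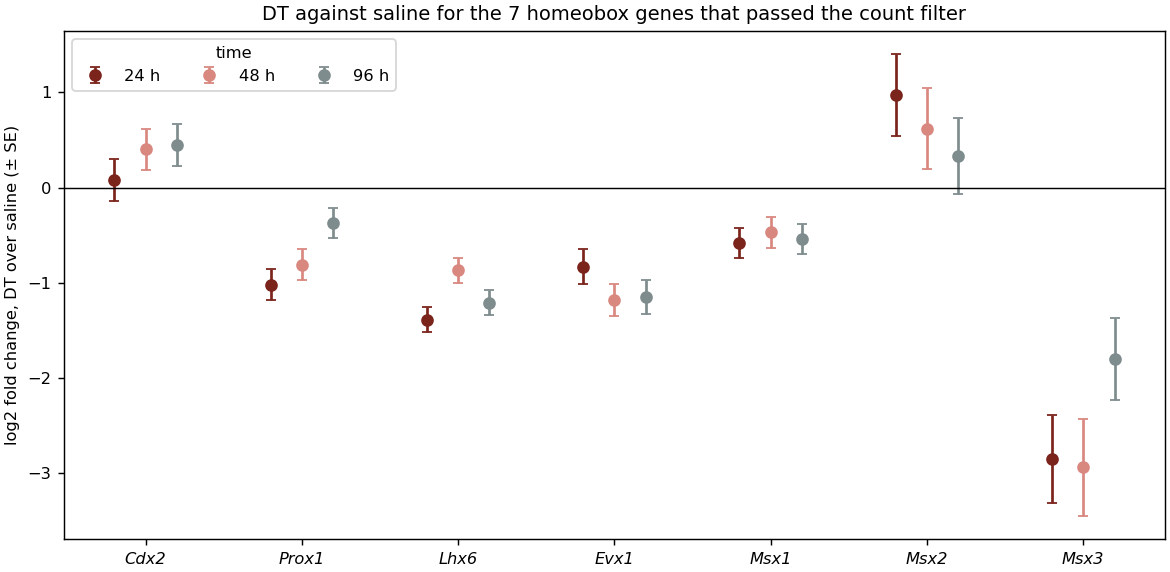
The log2 fold change of DT over saline with its SE for the 7 genes that passed the count filter, at 24, 48 and 96 h. Lhx6, Evx1, Msx1, Msx3 and Prox1 lie below 0 at each time, with Prox1 nearest 0 at 96 h (-0.37), and Cdx2 and Msx2 lie above it.

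Levels were compared between genes per length, as nRPKM, the authors' RPKM adjusted by a size factor. Prox1 led at 44.9 ± 8.42 nRPKM (SD, n = 4) with DT and 91.1 ± 3.54 nRPKM with saline at 24 h. With DT at 24 h, Cdx2 followed at 7.50 ± 2.11 nRPKM, Msx1 at 4.69 ± 1.20, Lhx6 at 2.09, Evx1 at 1.81, Msx2 at 0.795 and Msx3 at 0.0449. With saline at 24 h, Cdx2 followed at 7.12 ± 2.15 nRPKM, Msx1 at 7.02 ± 1.58, Lhx6 at 5.50, Evx1 at 3.23, Msx2 at 0.402 and Msx3 at 0.387. Libraries of Cdx2 and Msx1 overlapped in both groups, as did those of Lhx6 and Evx1 and of Evx1 and Msx2 with DT, Msx1 and Lhx6 with saline, and Msx2 and Msx3 with saline. At 48 and 96 h with DT, Cdx2 stood above Msx1 without overlap, at 8.14 against 4.29 nRPKM and at 7.26 against 5.43 nRPKM. At 96 h with saline the order was turned, with Msx1 at 7.81 and Cdx2 at 5.20 nRPKM.

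The ratio of Prox1 to Cdx2 within a library, both in nRPKM, had a median of 5.96 (range 4.35 to 9.11) with DT at 24 h, against 13.8 (9.30 to 17.2) with saline. At 48 h it was 7 with DT and 16.8 with saline, and at 96 h 9.51 with DT and 16 with saline. DT libraries lay below saline libraries at each time, from values that the choice of genes used. Among 172 homeobox genes ordered by median nRPKM over 12 libraries, Prox1 was second with DT (54.8 nRPKM, after Tgif1 at 70.5) and first with saline (92.0 nRPKM). Cdx2 stood at rank 22 with DT and 27 with saline, Msx1 at 32 with DT and 24 with saline, Lhx6 at 52 with DT and 32 with saline, and Evx1 at 59 with DT and 40 with saline. The label of tumour-expressed factors thus holds for presence in these libraries only, weakly for Msx2 and Msx3, as no normal tissue was analysed here, and Cdx1 did not meet its label.

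**Figure D3:**
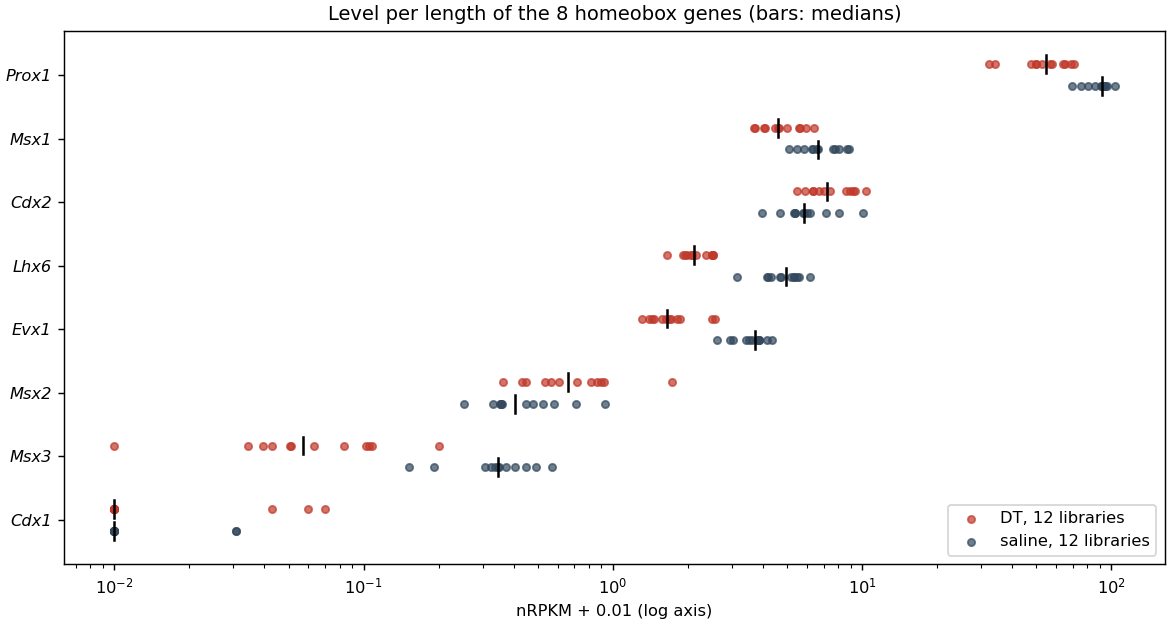
Level per length of the 8 genes, as nRPKM plus 0.01 on a log axis, with 12 DT libraries above 12 saline libraries in each row and bars at the medians. Prox1 lies apart at the top (median 54.8 with DT and 92.0 with saline), and Cdx1 at the bottom is 0 in 19 libraries.

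Saline libraries were compared between times to ask whether the members moved without DT. These libraries also serve as the reference of the DT contrast, and the 3 comparisons share them. Time is not balanced over any batch the labels give, so a difference between times cannot be told apart from the handling of the libraries. Of 21 tests of 7 genes none passed an adjusted p of 0.05 in edgeR, with 3 at an unadjusted p under 0.05, and none passed in DESeq2, limma or any other setting tried. Over all genes 0.355% were called between 48 and 24 h, 3.22% between 96 and 24 h and 0.0114% between 96 and 48 h. Lhx6 averaged 21.1 CPM at 48 h and 28.1 CPM at 24 h (log2 fold change -0.41 ± 0.13, adjusted p = 0.233), with all 48 h libraries below those of 24 h, as in 4.87% of genes. Evx1 averaged 13.3 CPM at 48 h and 10.5 CPM at 24 h (0.34 ± 0.17, adjusted p = 0.474), all higher, as in 4.92% of genes. Msx1 averaged 17 CPM at 96 h and 13.2 CPM at 48 h (0.38 ± 0.15, adjusted p = 0.98), all higher, as in 1.57% of genes. Cdx2 averaged 12.6 CPM at 96 h and 17.2 CPM at 24 h (-0.44 ± 0.22, adjusted p = 0.303). In the same libraries 6 of 6 blood endothelium markers rose and 3 of 6 tested leukocyte markers fell at 96 h against 24 h, and their part in these values was not tested.

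Noncoding partners lie beside 3 of the members. Prox1os overlaps Prox1 by 532 bases, Evx1os overlaps Evx1 by 1335 bases, and Msx1os lies wholly within Msx1, over 2188 bases. The use of strand in counting is not given in the sources used here, so reads of a gene and its antisense partner cannot be told apart where they overlap. The members were chosen on the DT contrast, so tests of Evx1os and Prox1os add no separate evidence on Evx1 or Prox1. Evx1os fell at each time. At 24 h it had 1.54, 2.32, 1.92 and 3.37 CPM with DT, against 11.2, 12.9, 7.69 and 8.71 CPM with saline, a log2 fold change of -2.12 ± 0.23 (adjusted p = 2.53e-07, edgeR). The log2 fold change was -1.60 at 48 h (adjusted p = 0.000155, edgeR; -1.84 without DT replicate 3) and -1.97 at 96 h (adjusted p = 5.28e-05). The groups were apart at each time, with DT beneath saline. Prox1os fell at 24 h (-1.14, adjusted p = 3.75e-05) and 48 h (-0.90, adjusted p = 0.00251; -1.02 without DT replicate 3), and was -0.31 at 96 h (adjusted p = 0.452). Msx1os, which shares its whole span with Msx1, had log2 fold changes of -0.61, -0.43 and -0.56 at 24, 48 and 96 h, beside -0.58, -0.47 and -0.54 for Msx1, and is given with no test.

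Genes of like pattern were taken by root mean square difference in centred log2 CPM over 24 libraries, among 13523 genes. For Prox1 they were Prox1os (0.117), Rnf150 (0.131) and Tenm4 (0.147), where the median gene differed by 0.503. For Msx1 they were Msx1os (0.0742), Itm2c (0.193) and Rac3 (0.203). For Lhx6 they were Slc6a9 (0.186), Bcas1 (0.187) and Proser2 (0.196), and for Evx1 Pik3ap1 (0.197), Lhpp (0.224) and Mocos (0.228). For Cdx2 they were Serpinb1a (0.225), Myo7b (0.229) and Cln6 (0.266). For Msx2 they were Pitx1 (0.331), Hhex (0.345) and Myl9 (0.347), the loosest of the 6, and Msx3 fell under the level required. These libraries share groups and scaling, so the values describe likeness only.

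Other homeobox genes were mostly not called after DT. Of 164 listed, 102 passed the filter. The list shares 4 genes with the other intestinal transcription factors, 3 with the foregut and gastric genes and 3 with the BMP pathway genes described further on. The counts of calls include Dlx1, Hoxc10, Lhx9 and Nkx1-2, which reached the filter through libraries of 1 treatment alone. At 24 h 11 rose and 21 fell, with a median log2 fold change of -0.01 against 0 over all genes, of which 19.9% rose and 18.9% fell. At 48 h 2 rose and 7 fell, with a median of 0.05, where 4.83% of all genes rose and 6.5% fell. At 96 h 2 rose and 6 fell, with a median of 0.03, where 1.01% of all genes rose and 3.02% fell. The rises at 24 h came to 6 without DT replicate 4 and 7 without saline replicate 2. At 48 h they were 4 without DT replicate 3 and 0 without DT replicate 2 or saline replicate 2, and the falls then came to 4 without saline replicate 2 or 4. At 96 h the rises were 0 without DT replicate 4 or saline replicate 2 or 4.

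Gbx2 and Tlx2 fell at each time, and Nkx1-2 is given as a description, as it passed the count filter through its saline libraries alone. Nkx1-2, a gene of mouse tail bud progenitors, averaged 0.291 ± 0.137 CPM with DT and 1.75 ± 0.718 CPM with saline at 24 h (SD, n = 4 each), a log2 fold change of -2.53. It was -2.31 at 48 h (-2.90 without DT replicate 3) and -2.14 at 96 h. Gbx2, a midbrain and hindbrain boundary gene, averaged 3.39 CPM with DT and 12 CPM with saline at 24 h (-1.78, adjusted p = 3.95e-05, edgeR), and was -1.34 at 48 h and -1.54 at 96 h. Tlx2, a gene of the enteric nervous system, averaged 2.43 CPM with DT and 5.99 CPM with saline at 24 h (-1.30, adjusted p = 0.000221, edgeR), and was -1.27 at 48 h and -1.17 at 96 h. Hoxa2 rose at 24 h, by 0.95 on the log2 scale, and Hoxb8 fell by 0.85. Over the libraries left out, Hoxa4 rose by 0.63 to 0.81 at 24 h and 0.59 to 0.85 at 48 h. Hoxa3 likewise rose by 0.55 to 0.76 at 24 h and 0.56 to 0.80 at 96 h. The Hoxa4 call at 48 h and the Hoxa3 call at 96 h were lost in some of these fits (adjusted p up to 0.0817 and 0.117, edgeR). Both were also lost with the replicate block (adjusted p = 0.0769 and 0.106, edgeR). Dlx1 averaged 1.4 CPM with DT and 0.532 CPM with saline at 24 h, and passed the filter through DT libraries alone. Dlx3 fell at 96 h (-0.59), as did Pbx3 (-0.51), a cofactor of Hox proteins, with averages of 14.3 CPM with DT and 20.4 CPM with saline. The Dlx3 call at 96 h was lost with the replicate block (adjusted p = 0.065, edgeR).

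Of 24 intestinal genes linked to CDX factors, 19 passed the filter. At 24 h 2 rose and 3 fell, where 19.9% and 18.9% of all genes did, and nothing is read from counts this small. At 48 h 2 rose and 1 fell, where 4.83% and 6.5% of all genes did, and none was called at 96 h in edgeR, DESeq2 or limma, with 6 at an unadjusted p under 0.05 (4 higher and 2 lower). Without saline replicate 2, Cdh17 was called higher at 96 h (0.67, adjusted p = 0.00197, edgeR). The medians were 0, -0.05 and 0.19 at 24, 48 and 96 h. Cdh17, an intestinal cadherin and direct CDX2 target, averaged 159 ± 26.3 CPM with DT and 98.0 ± 14.4 CPM with saline at 24 h (log2 fold change 0.70, adjusted p = 0.00127, edgeR), and was 0.49 at 48 h (adjusted p = 0.0498, edgeR). In edgeR the 48 h call was lost with median-of-ratios scaling (adjusted p = 0.0512) and the authors' size factors (adjusted p = 0.0511). It was also lost with no low-count filter (adjusted p = 0.0854) and with the replicate block. The same held when any of DT replicates 1, 2 or 4 or saline replicates 1, 2 or 4 was left out. Lgals4, a lectin of the apical membrane, rose by 0.68 at 48 h (0.80 without DT replicate 3). Heph, an iron oxidase, fell by 0.85 at 24 h and by 0.51 at 48 h. Muc2, the goblet cell mucin, averaged 1.13 CPM with DT and 9.78 CPM with saline at 24 h (-3.09, adjusted p = 1.27e-05, edgeR). The 48 h rise of 2 genes came to 1 without DT replicate 1, 2 or 4 or saline replicate 1, 2 or 4.

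Among 22 other intestinal transcription factors, 21 of which passed, 3 rose and 7 fell at 24 h, 1 rose and 2 fell at 48 h, and 3 rose and 2 fell at 96 h. Over all genes 19.9% rose and 18.9% fell at 24 h, 4.83% and 6.5% at 48 h, and 1.01% and 3.02% at 96 h. The medians were -0.03, -0.07 and 0.1. Hnf4a, a nuclear receptor of enterocytes, averaged 150 CPM with DT and 103 CPM with saline at 24 h (0.54, adjusted p = 3.24e-06, edgeR), with log2 fold changes of 0.25 at 48 h and 0.40 at 96 h. The 48 h call was lost without DT replicate 2 or 4 or saline replicate 1, 2 or 4. It was also lost with the replicate block (adjusted p = 0.0774, edgeR) and with only the libraries compared (adjusted p = 0.124, edgeR). Klf4, a zinc finger gene of differentiated cells, fell by 0.50, 0.45 and 0.43 at 24, 48 and 96 h. Foxa1, a pioneer factor, fell by 0.52, 0.37 and 0.20, the last call being lost without DT replicate 2, 3 or 4 or saline replicate 1 or 3. That call was also lost with no low-count filter (adjusted p = 0.0988, edgeR) and with the replicate block (adjusted p = 0.103, edgeR). Nr1h4, the bile acid receptor, averaged 1.55 CPM with DT and 0.311 CPM with saline at 24 h, and is given with no test, as it passed the filter through DT libraries alone. The 3 rises counted at 24 h include Nr1h4. Without DT replicate 3 the 48 h counts were 2 rises and 4 falls, and without DT replicate 2 or 4 or saline replicate 1, 2 or 4 no gene rose. At 96 h the falls came to 1 without DT replicate 2, 3 or 4 or saline replicate 1 or 3, and the rises to 1 without saline replicate 4. At 24 h the rises came to 5 without saline replicate 1.

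Foregut and gastric genes, 18 of 20 of which passed, had 5 rises and 3 falls at 24 h, 0 rises and 3 falls at 48 h, and 0 rises and 1 fall at 96 h. The shares of all genes that rose and fell were 19.9% and 18.9% at 24 h, 4.83% and 6.5% at 48 h, and 1.01% and 3.02% at 96 h. No rise was called at 48 or 96 h in edgeR, DESeq2 or limma, with 1 and 0 at an unadjusted p under 0.05. The medians were 0.36, 0.1 and -0.06. Krt4, a keratin of stratified epithelium, averaged 150 CPM with DT and 68.5 CPM with saline at 24 h (1.14, adjusted p = 4.92e-05, edgeR), and Anxa10, an annexin of gastric epithelium, rose by 1.54. Muc6, a mucin of gastric glands, fell by 1.18 at 24 h and by 0.65 at 48 h, a 48 h call lost without DT replicate 1 or 4 or saline replicate 2, 3 or 4. It was also lost with no low-count filter (adjusted p = 0.0544, edgeR) and the replicate block (adjusted p = 0.0628, edgeR). Sox2, a foregut transcription factor, fell at 24 h, with log2 fold changes of -1.12 to -0.83 over the libraries left out (adjusted p of 0.00138 to 0.0134, edgeR). At 48 h they ran between -1.11 and -0.79, and the call was lost in some of these fits (adjusted p up to 0.0707, edgeR). Ctse, an aspartic protease, fell by 0.77, 0.41 and 0.47 at the 3 times, the 48 h call being lost without DT replicate 2 (adjusted p = 0.0519) and the 96 h call without DT replicate 3 (adjusted p = 0.0545). With the replicate block both calls were lost (adjusted p = 0.0528 at 48 h and 0.0635 at 96 h, edgeR). The rises at 24 h came to 3 without DT replicate 3, the 48 h falls to 1 without DT replicate 1 or 4 or saline replicate 2 or 4, and the 48 h rises to 2 without DT replicate 3 and 1 without saline replicate 3. The single 96 h fall was lost without DT replicate 3 and became 2 without saline replicate 2.

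**Figure D4:**
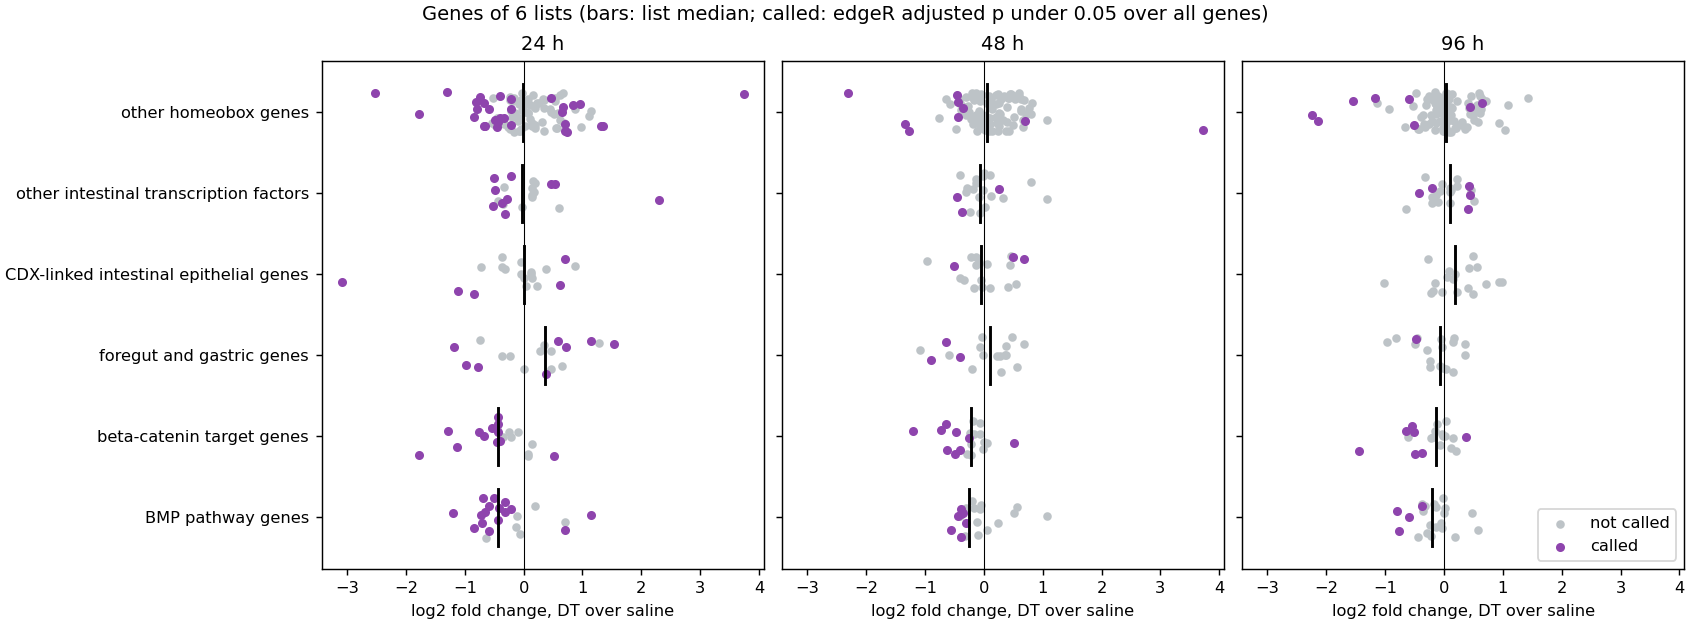
Log2 fold change of DT over saline for the tested genes of 6 lists at 24, 48 and 96 h, with called genes in purple and the list median as a bar. Beta-catenin targets and BMP pathway genes have medians of -0.43 each at 24 h, and the other homeobox genes a median of -0.01.

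Beta-catenin targets and BMP pathway genes fell more often than they rose at 24 h, and a link to the members was not tested. Of 20 beta-catenin targets, all of which passed, 1 rose and 11 fell at 24 h, 1 rose and 8 fell at 48 h, and 1 rose and 6 fell at 96 h. Of all genes, 19.9% rose and 18.9% fell at 24 h, 4.83% and 6.5% at 48 h, and 1.01% and 3.02% at 96 h. The medians were -0.43, -0.23 and -0.13. Nkd1, a feedback inhibitor of Wnt signalling, averaged 533 ± 76.5 CPM with DT and 1170 ± 65.4 CPM with saline at 24 h (-1.13, adjusted p = 1.81e-08, edgeR), and was -0.65 at 48 h and -0.50 at 96 h. Notum, a secreted Wnt deacylase, fell by 1.29, 0.72 and 0.54 at the 3 times, the 96 h call being lost with the replicate block (adjusted p = 0.0865, edgeR). Wif1, a secreted Wnt binder, averaged 197 CPM with DT and 538 CPM with saline at 96 h (-1.45, adjusted p = 0.00185, edgeR). Myc rose by 0.51, 0.51 and 0.38. The 48 h falls came to 5 without DT replicate 2 and 10 without DT replicate 3, and the 24 h rises to 2 without DT replicate 4.

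Of 23 BMP pathway genes, 22 passed, and 2 rose and 14 fell at 24 h, 0 rose and 7 fell at 48 h, and 0 rose and 4 fell at 96 h, against 19.9% and 18.9% of all genes at 24 h, 4.83% and 6.5% at 48 h, and 1.01% and 3.02% at 96 h. The counts include Nog, which passed the filter through DT libraries alone, and Dlx3, Dlx5 and Hhex are listed among the other homeobox genes too. No rise was called at 48 or 96 h in edgeR, DESeq2 or limma, with 2 and 1 at an unadjusted p under 0.05. The medians were -0.43, -0.26 and -0.2. Id2, a BMP-induced inhibitor of helix-loop-helix factors, averaged 93.7 ± 12.3 CPM with DT and 148 ± 11.3 CPM with saline at 24 h (-0.66, adjusted p = 1.87e-06, edgeR) and fell by 0.39 at 48 h. Id3 fell by 0.84 at 24 h. Smad7, an inhibitory Smad, fell by 0.44, 0.31 and 0.38 at the 3 times (48 h lost with only the libraries compared, adjusted p = 0.0707), and Bmp7, a ligand, fell by 0.50 at 24 h and 0.36 at 48 h. Bmp4, also a ligand, averaged 11.0 CPM with DT and 18.5 CPM with saline at 96 h (-0.76, adjusted p = 0.00208, edgeR). The 48 h falls came to 3 without DT replicate 2 or 4 or saline replicate 2, 3 or 4, and the 24 h rises to 0 without DT replicate 4 and 1 without saline replicate 2, 3 or 4. At 48 h 1 gene rose without saline replicate 1.

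Markers of other cell types were summed beside the homeobox genes. Lymphatic endothelium, where Prox1 is the defining factor, had 4 of 5 markers tested and none called at any time in edgeR, with 1 at an unadjusted p under 0.05, higher at 96 h. Their summed level was 12.3 to 25.1 CPM with DT and 14.9 to 17.1 CPM with saline at 24 h, 23.1 to 28.2 with DT and 14.1 to 26.7 with saline at 48 h, and 19.6 to 33.6 with DT and 13.5 to 43.4 with saline at 96 h. Over the 24 libraries Pdpn reached at most 7.61 nRPKM, Flt4 3.82, Lyve1 2.08 and Reln 0.261 nRPKM, and Ccl21a was at 0 in each. Enteroendocrine markers, where Prox1 is also known, summed to 219 to 623 CPM with DT and 183 to 381 CPM with saline at 24 h, 82.1 to 265 with DT and 147 to 257 with saline at 48 h, and 173 to 602 with DT and 127 to 246 with saline at 96 h. Of 7 tested, 1 rose at 24 h, where 19.9% of all genes rose and 18.9% fell. Tuft markers summed to 239 to 332 CPM with DT and 238 to 274 CPM with saline at 24 h, 184 to 237 with DT and 207 to 269 with saline at 48 h, and 327 to 439 with DT and 219 to 389 with saline at 96 h. Of 5 tested, Trpm5 rose (0.67, adjusted p = 0.032, edgeR) and Dclk1 fell (-0.56, adjusted p = 0.00629, edgeR) at 24 h. At 48 h Dclk1 fell (-0.57, adjusted p = 0.0214, edgeR), where 6.5% of all genes fell.

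Fibroblast markers summed to 2900 to 6670 CPM with DT and 3410 to 4000 CPM with saline at 24 h, 7030 to 11400 with DT and 3610 to 7310 with saline at 48 h, and 5380 to 9910 with DT and 2750 to 9680 with saline at 96 h. Of 8 tested, 2 rose at 24 h, where 19.9% of all genes did. The median log2 fold change of the 8 was 0.56, 0.56 and 0.04 at the 3 times. Leukocyte markers summed to 48 to 146 CPM with DT and 77.4 to 112 CPM with saline at 24 h, 42 to 64.2 with DT and 50 to 119 with saline at 48 h, and 34.9 to 44.5 with DT and 36.9 to 62.6 with saline at 96 h. Blood endothelium markers summed to 274 to 309 CPM with DT and 204 to 301 CPM with saline at 24 h, 295 to 431 with DT and 297 to 390 with saline at 48 h, and 415 to 609 with DT and 337 to 638 with saline at 96 h. Epithelial markers summed to 7240 to 9040 CPM with DT and 7000 to 7590 CPM with saline at 24 h, 7000 to 8290 with DT and 6770 to 7540 with saline at 48 h, and 6830 to 7480 with DT and 6890 to 7600 with saline at 96 h, and neuron and glia markers to at most 19.4 CPM. Of 8 epithelial markers tested, 3 rose and 2 fell at 24 h in edgeR, where 19.9% and 18.9% of all genes did. Krt18 (0.37, adjusted p = 0.000758), Krt19 (0.43, adjusted p = 0.00163) and Cldn7 (0.36, adjusted p = 0.000921) rose. Epcam, the marker in the sample names, averaged 1320 CPM with DT and 1590 CPM with saline (-0.26, adjusted p = 0.00141), and Cdh1 fell too (-0.18, adjusted p = 0.0493). The part of these cell types in the values of the homeobox genes was not tested.

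**Figure D5:**
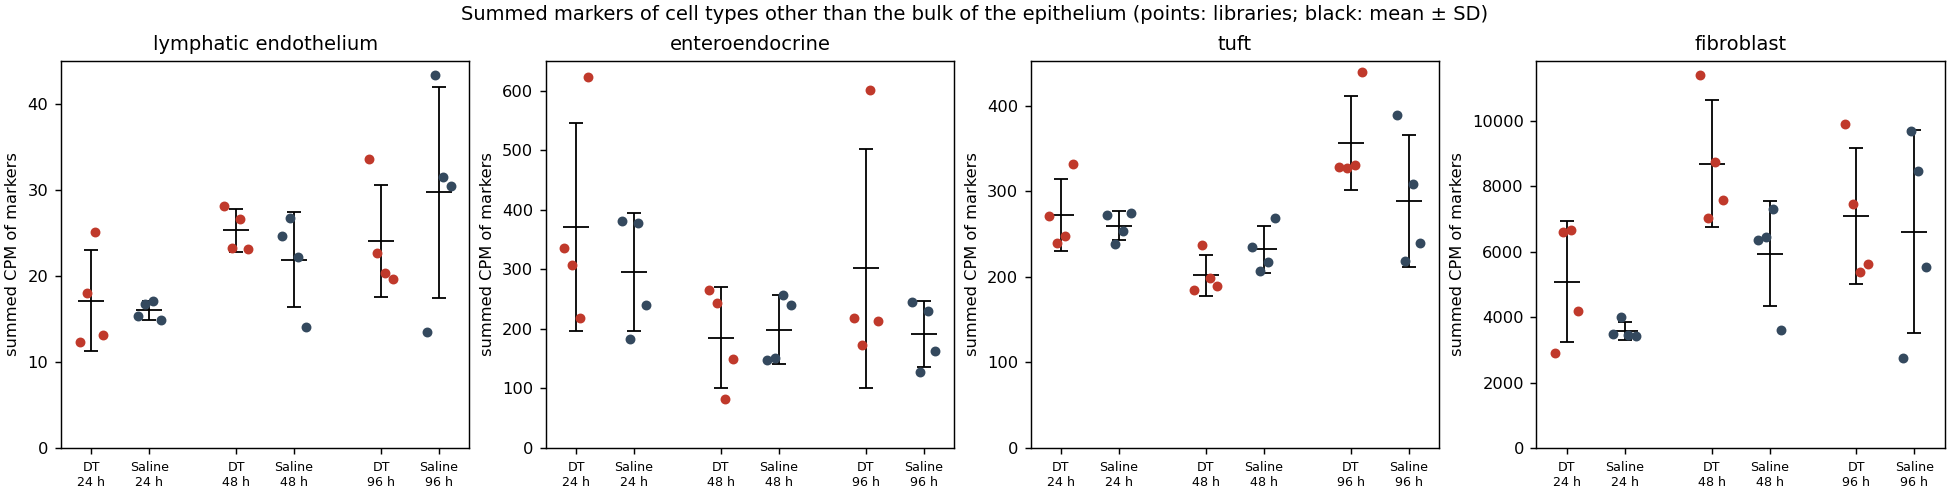
Summed CPM of marker genes of 4 cell types in each library, DT left of saline at each time, with the mean and SD in black. Fibroblast markers at 48 h reach 11400 CPM with DT and 7310 CPM with saline, and the lymphatic sum does not exceed 43.4 CPM in any library.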

How the data were processed

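Gene expression was measured by sequencing polyA RNA of sorted tumour cells in 24 libraries, extracted with the RNeasy Micro kit per the labels' protocols. The authors deposited a table per library with a count and an RPKM per gene. Per the file headers, the deposited count gives uniquely aligned reads within a gene model. The deposited RPKM (nRPKM) was scaled by the authors with a size factor. GSNAP and GRCm38 are named in the submitters' processing notes; the sources used here name no versions, annotation or strand use. Of the identifiers, 31049 (85.0%) matched symbols of RefSeq GRCm38.p6, and the rest held 1.29% to 1.52% of counts and stayed in the tests. Counts were fitted as deposited with edgeR 4.0.16 in R 4.3.3, by the quasi-likelihood test after TMM scaling and filtering by expression, in 1 fit over 24 libraries with 18 residual degrees of freedom, with p-values adjusted by Benjamini-Hochberg over 17468 genes at a threshold of 0.05, two-sided. CPM use TMM library sizes. Replicates differed beyond sampling noise, with a smallest chi-square per degree of freedom of 3.97, so none was counted as a copy.

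The members and all gene lists were chosen with earlier results of these data known. The text names, per list and comparison, up to 4 called genes with the smallest p, for other homeobox genes up to 6 with the greatest change among those with at least 1 CPM in a group, and for likeness 3 genes per member; of these a part is printed. Alternatives were other scaling, other filters, DESeq2 1.42.0, limma voom 3.58.1, a replicate block, fits of only the libraries compared, each library left out, and a prior count of 0.5 in place of 2 for the likeness. Scaling of the nRPKM by the authors was recovered over 11928 genes with a count of at least 50, to a relative deviation of at most 6.4e-15.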

Additional observations from a re-analysis of the deposited data

Results flagged for a closer look

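Of 42 groups of 4 libraries examined, 4 held a library whose gap to its neighbour was large against the range of the group, where chance gives about 1 in 20. Cdx2 was lowest in DT replicate 4 at 48 h, at 14.3 CPM, against 21 to 22.4 CPM in the other DT libraries (gap over range 0.832). Prox1 was lowest in DT replicate 3 at 24 h, at 310 CPM, against 456 to 484 CPM in the others (0.842). Lhx6 was highest in saline replicate 2 at 24 h, at 31.3 CPM, against 26.7 to 27.3 CPM in the others (0.866). Msx2 was highest in saline replicate 1 at 24 h, at 1.39 CPM, against 0.825 to 0.848 CPM in the others (0.959).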

How the results depend on the processing

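No log2 fold change of a member changed sign under another scaling, filter or tool, while leaving out 1 library turned those of Cdx2 at 24 h and of Cdx2, Msx2 and Msx3 between saline times. Leaving out 1 library gave 0.26 to 1.25 for Msx2 and -3.51 to -2.64 for Msx3 at 24 h. The counts of genes called ran between 1154 and 2741 (1979 with all libraries) for DT at 48 h, 359 and 680 (704) for DT at 96 h, 38 and 87 (62) for saline 48 against 24 h, 91 and 1218 (563) for saline 96 against 24 h, and 0 and 2 (2) for saline 96 against 48 h. DESeq2 called 156, 978 and 6 genes in these saline comparisons, limma voom 220 for 96 against 24 h, no filter 321 and 1 for 96 against 24 and 48 h, and a fit of only the libraries compared 285, 322 and 1, and 945 for DT at 48 h. Other scaling moved the median of all genes by at most 0.01, and leaving out the count filter by at most 0.05.

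Same-numbered DT and saline libraries of a time had correlations of -0.36 to 0.13, against -0.29 to 0.28 for libraries of unlike number. Replicate numbers were therefore not used as pairs, though such correlations cannot settle whether libraries shared an origin, which the labels do not say. A replicate block gave 5625 calls at 24 h, 933 at 48 h and 301 at 96 h, with 51.4%, 31.5% and 12% of them higher, against 51.3%, 42.6% and 25% without it. Prox1 was -1.04, -0.85 and -0.36 with it, at 24, 48 and 96 h. The block could not be estimated for saline between times. Depth limits Cdx1 and Msx3, and the cause of changes was not tested.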

Other observations

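Hoxc10, a posterior Hox gene outside the naming rule for its low level and chosen after its values were seen, averaged 0.524 CPM with DT and 0.0366 CPM with saline at 24 h, and 0.923 CPM with DT and 0.067 CPM with saline at 48 h. It passed the count filter through DT libraries alone and is given with no test. However, 1 saline library also reached the filter's cut of 0.625 CPM. The saline averages at 24 and 48 h are too low to hold that library, so it lay at 96 h. Over the 12 saline libraries the highest level was 0.454 nRPKM, above the DT median of 0.25 nRPKM. Averages at 96 h are not given, so the higher level with DT is described for 24 and 48 h only.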
